A study of Homo sapiens with 6 samples.

Results

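Of 10 S100 genes of chromosome 1q21, the 8 abundant enough to test were higher in WPMY-1 cells carrying a hairpin against CAVIN1 than in cells carrying the control vector. Over all 13941 tested genes 27.3% were called higher and 28.2% lower (limma adjusted p under 0.05). The 10 members, of 33117 rows in the table, were S100A1, S100A2, S100A3, S100A4, S100A6, S100A10, S100A11, S100A13, S100A14 and S100A16. They were taken by name but selected on their FPKM values in this same comparison, shCtrl against shCAVIN1, so their levels and differences are given as a description. WPMY-1 is an immortalised line of stromal cells from normal human prostate. The shCtrl group (3 libraries) carried the control plasmid pLKO1, and the shCAVIN1 group (3 libraries) carried a lentiviral short hairpin RNA against CAVIN1, for which the labels give a single sequence. Cells of both groups grew in DMEM with 5% FBS, and virus-treated cells went through puromycin to give stable clones. The replicates are described as independent, without saying whether they came from separate clones or transductions, so errors and p-values measure only the spread between these libraries. Total RNA was sequenced, and values are FPKM, fragments per kilobase of transcript scaled to the mapped fragments of the library. Unless stated otherwise, a level is the mean ± SD of the 3 libraries of a group (n = 3).

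S100 proteins are small calcium-binding proteins, mostly dimers, that carry a pair of EF-hand loops. Calcium opens a surface on each subunit through which most of them bind target proteins such as annexins, myosin and p53, and some are also released from cells and bind receptors such as RAGE. Most human S100 genes lie in the epidermal differentiation region of 1q21. S100A4 is also called fibroblast-specific protein 1 and is widely used as a marker of fibroblasts and of motile cells, and CAVIN1 coats caveolae, small invaginations of the plasma membrane.

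The members lie in 2 places (GENCODE 29, GRCh38). S100A10 (chr1:151982915-151994390) and S100A11 (chr1:152032506-152047907) stand 38.1 kb apart, and a gap of 1487 kb that holds the epidermal genes separates them from the other 8. Those run from S100A6 (chr1:153534599-153536244) over S100A4 (chr1:153543613-153550136), S100A3, S100A2, S100A16, S100A14 and S100A13 to S100A1 (chr1:153627926-153632039), all on the minus strand except S100A1. S100A3 lies within the bounds of S100A4 but shares no exon base with it. S100A13 and S100A1 overlap on opposite strands by 235 exon bases, and since the kit keeps the strand but it is not given whether counting used it, their fragments there cannot be told apart.

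Upstream sequence is shown for the 2 members with the largest differences (S100A4 and S100A6), for the member with the smallest (S100A11) and for S100A2, whose stretch holds an AP-1 motif. It comes from RefSeq (GRCh38.p14), which had 14 promoter entries for the 10 members, is written 5′ to 3′ on the gene's strand, and leaves out bases in exons of other annotated transcripts beyond runs of 30. Capitals mark the 4 motifs searched on both strands, which do not contain one another. TATAAA is the core of the TATA box. The GC box bound by Sp1 was searched as GGGCGG. The box known from many basal promoters was searched as CCAAT. The AP-1 site of Jun and Fos proteins was searched as TGANTCA. Positions count back from the base before the start as -1. The first S100A4 line covers -250 to -80 (chr1:153545886-153546056) and the next -43 to -14 (chr1:153545820-153545849). The S100A6 line covers -94 to -65 (chr1:153536056-153536085), the S100A11 line -250 to -32 (chr1:152037036-152037254) and the S100A2 line -250 to -22 (chr1:153565866-153566094).
S100A4 distal: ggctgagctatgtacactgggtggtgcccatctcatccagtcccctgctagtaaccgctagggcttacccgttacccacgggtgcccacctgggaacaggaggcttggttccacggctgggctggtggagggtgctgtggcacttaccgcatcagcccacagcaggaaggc
S100A4 proximal: gcctggctggggTATAAAtaggtcagacct
S100A6: gcgcGGGCGGgacttGGGCGGGCGGggtgg
S100A11: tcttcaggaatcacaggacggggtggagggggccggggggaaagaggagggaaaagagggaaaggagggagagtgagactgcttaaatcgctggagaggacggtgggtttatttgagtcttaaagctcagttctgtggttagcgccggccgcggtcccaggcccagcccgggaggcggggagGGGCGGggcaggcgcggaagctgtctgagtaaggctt
S100A2: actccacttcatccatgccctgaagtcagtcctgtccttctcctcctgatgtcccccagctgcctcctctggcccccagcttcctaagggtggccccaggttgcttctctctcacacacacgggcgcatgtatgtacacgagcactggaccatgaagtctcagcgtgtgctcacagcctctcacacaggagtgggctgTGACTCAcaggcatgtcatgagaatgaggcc

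The 250 bases before the start differed between the 2 members with the largest differences. S100A4 held TATAAA, as did 1 entry of S100A13, and no GC box. S100A6 held 3 matches to the GC box, of which 2 overlap within GGGCGGGCGG. S100A6 had no exact TATAAA, but TATAAG, which was not searched, lies between its printed stretch and the start. The contrast between S100A4 and S100A6 therefore covers exact matches only. Counted over promoter entries, TATAAA was in 2 of 14 (14.3%), against 10.7% of 35116 human promoters of the same length. A GC box was in 6 of 14 (42.9%), against 42.6%. AP-1 was in 2 of 14 (14.3%), those of S100A2 and S100A3, against 6.57%, and CCAAT in 3 of 14 (21.4%), against 32.0%. The G and C content was 62.8% for S100A4 and 70.0% for S100A6, with 7 and 24 CG dinucleotides, where the median promoter had 58.0% and 11. These are matches of letters in a window.

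CAVIN1 was the target of the hairpin, and the table lists it under its older symbol PTRF. It stood at 329.6, 346.9 and 330.3 FPKM in shCtrl and at 133.9, 138.8 and 150.2 FPKM in shCAVIN1, so that the groups did not overlap. Its log2 difference, taken as shCAVIN1 minus shCtrl on log2(FPKM + 0.5) as are all those below, was -1.25 (SE 0.0586, limma adjusted p = 2.88e-05). Permuting the 6 libraries (exact, two-sided) gave 0.1, which is as small as p can be in this design. Among stromal markers VIM, PDGFRB, THY1 and the other 7 of 10 had a mean of at least 1 FPKM, with a summed level of 1429 to 1586 FPKM in shCtrl and 893 to 908 in shCAVIN1. Of these 10 genes 2 rose, 5 fell and 3 did not pass. TAGLN, at 675 ± 33.3 and 346 ± 12.7 FPKM, held the largest part of the fall in the sum. COL1A2 had the largest log2 difference of the 10, at -3.06, from 85.5 ± 11.9 to 9.78 ± 0.731 FPKM. FN1 fell from 199 ± 57.8 to 57.8 ± 5.41 FPKM, whereas DCN rose 8.68-fold and ACTA2 2.002-fold. These 5 were named after their values were seen. Of 11 epithelial markers 7 stayed under 0.5 FPKM in each library, among them CDH1 at no more than 0.0678 FPKM and KLK3 at 0. EPCAM did not exceed 0.567 FPKM. CLDN4 ranged from 0.605 to 1.10 FPKM and did not pass the test. KRT18 and KRT8 made up most of a sum of 398 to 432 FPKM in shCtrl and 241 to 256 in shCAVIN1. Of the 2 keratins, KRT18 fell from 385 ± 17.7 to 219 ± 7.59 FPKM, whereas KRT8 rose from 23.5 ± 1.23 to 28.6 ± 0.247 FPKM. The summed level of 6 myeloid and leukocyte markers was 8.002 to 8.66 FPKM and 10.1 to 10.4 FPKM, that of 5 melanocyte and Schwann cell markers 7.45 to 8.001 and 10.2 to 11.1 FPKM, and that of 4 endothelial markers stayed under 0.244 FPKM. The part of these shifts in the S100 values was not tested. The 10 most abundant rows held 21.1% of the FPKM sum in shCtrl replicate 2 and 30.8% to 42.6% in the other 5 libraries.

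S100A4, which binds non-muscle myosin and is linked to cell motility, showed the largest difference of the family. It stood at 2.61, 3.18 and 3.36 FPKM in shCtrl and at 22.2, 22.7 and 22.3 FPKM in shCAVIN1. Each of the 3 shCAVIN1 libraries was thus at least 6.62 times any shCtrl library, and their coefficient of variation was 1.05%. The ratio of means was 7.35 and the log2 difference 2.70 (SE 0.0848), at position 51 of 13941 tested genes when these are ordered from the largest rise. In the order of levels among the members S100A4 stood eighth in shCtrl, where its range overlapped that of S100A3, and sixth in shCAVIN1, where it was above S100A2 and S100A3 without overlap. S100A3, whose gene lies inside the bounds of S100A4, went from 3.65 ± 0.354 to 6.29 ± 0.774 FPKM, so that the ratio of S100A4 to S100A3 within a library went from 0.842 ± 0.160 to 3.59 ± 0.379.

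S100A6 (calcyclin), which binds annexins and the calcyclin-binding protein CACYBP, was the most abundant member in each library. It stood at 409.9, 449.4 and 431.2 FPKM in shCtrl and at 1502, 1497 and 1537 FPKM in shCAVIN1. The lowest shCAVIN1 library was 3.33 times the highest shCtrl library. Its mean went from 430.2 ± 19.8 to 1512 ± 21.6 FPKM, a ratio of 3.51 and a log2 difference of 1.81 (SE 0.0629), and its position among 18316 protein-coding rows went from between 152 and 156 to between 27 and 28. S100A6 alone held 47.3% to 49.0% of the summed FPKM of the 10 members in shCtrl and 65.6% to 66.1% in shCAVIN1. That sum went from 890.6 ± 54.6 to 2299 ± 23.5 FPKM, or from between 0.202% and 0.207% of all protein-coding FPKM to between 0.530% and 0.537%. Without S100A6 the sum was 1.71 times higher rather than 2.58 times. In bulk RNA more cells that express a gene and more RNA per cell cannot be told apart.

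**Figure D1:**
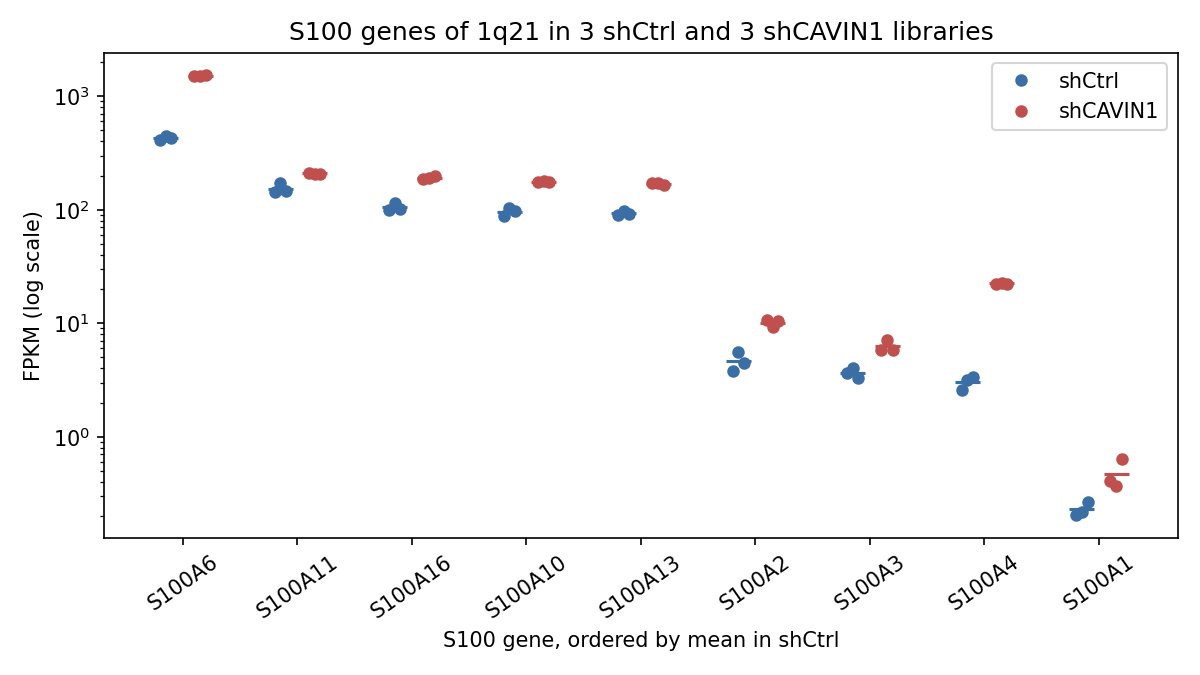
FPKM on a log axis for 9 S100 genes in each of 3 shCtrl (blue) and 3 shCAVIN1 (red) libraries, with short lines at the group means. S100A6 stayed the highest, S100A4 moved from about the level of S100A3 (means 3.05 and 3.65) to 22.4 FPKM, and S100A14, with values of 0, is not drawn.

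S100A10, S100A13 and S100A16 were all present at about 100 FPKM and differed by nearly the same ratio. S100A10 (p11), the partner of annexin A2, no longer responds to calcium and sits constitutively in a complex at the membrane. It stood at 88.2, 102.6 and 98.1 FPKM in shCtrl and at 175.7, 177.5 and 177.2 FPKM in shCAVIN1. S100A13, which takes part in the release of FGF1, stood at 89.7, 98.3 and 92.3 FPKM against 172.3, 171.5 and 166.0 FPKM. S100A16, a widely expressed member, stood at 100.4, 115.7 and 101.6 FPKM against 187.9, 189.6 and 197.9 FPKM. Over all tested genes 64.6% did not overlap between the groups, and none of these 3 genes did. Their ratios of means were 1.84, 1.82 and 1.81, and their log2 differences of 0.88 (SE 0.0629), 0.86 (SE 0.0493) and 0.86 (SE 0.0666) lay within 1 SE of each other. The ratio of S100A13 to S100A16 within a library was 0.884 ± 0.0307 in shCtrl and 0.887 ± 0.0419 in shCAVIN1. In shCtrl the ranges of S100A16 and S100A10, and of S100A10 and S100A13, overlapped; in shCAVIN1 they did not.

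S100A11 (calgizzarin), which binds annexin A1, had the smallest difference of the tested members although it was the second most abundant. It stood at 143.0, 170.4 and 146.1 FPKM in shCtrl and at 211.2, 207.0 and 208.4 FPKM in shCAVIN1. The groups did not overlap, and the ratio of means was 1.36 with a log2 difference of 0.45 (SE 0.0745). The ratio of S100A10 to S100A11, its neighbour at 38.1 kb, went from 0.630 ± 0.0367 to 0.847 ± 0.0134. S100A11 was the single member that no longer passed the test after libraries were rescaled to TPM, at a log2 difference of 0.57 (SE 0.204).

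S100A2 and S100A3 were low. S100A2, best known from epithelia, where it binds p53, stood at 3.83, 5.58 and 4.43 FPKM in shCtrl and at 10.7, 9.20 and 10.5 FPKM in shCAVIN1. Its ratio of means was 2.19 and its log2 difference 1.07 (SE 0.132). S100A3, a protein of the hair cuticle, stood at 3.67, 3.998 and 3.29 FPKM against 5.87, 7.18 and 5.82 FPKM, with a ratio of 1.72 and a log2 difference of 0.71 (SE 0.102). Neither gene overlapped between the groups, where 64.6% of all tested genes did not overlap either.

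Both remaining members were below the filter of a mean of 0.5 FPKM. S100A1, a regulator of calcium release in muscle, stood at 0.203, 0.219 and 0.266 FPKM in shCtrl and at 0.408, 0.371 and 0.639 FPKM in shCAVIN1, without overlap. S100A13, which overlaps it on the other strand, stood at 93.5 ± 4.41 and 169.9 ± 3.42 FPKM, so the values of S100A1 are uncertain. S100A14, an epithelial member, was listed at 0 in 1 library of each group and at no more than 0.121 FPKM in any. No direction is read from it.

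Counted together, 8 of 10 members could be tested, and all 8 passed the threshold as higher in shCAVIN1 (adjusted p under 0.05 in limma over all tested genes), where 27.3% of the 13941 tested genes passed as higher and 28.2% as lower, 55.5% in all. The same 8 and S100A1 did not overlap between the groups and were higher in shCAVIN1, against 31.3% of tested genes, and 64.6% of tested genes did not overlap in either direction. Because the members were chosen with this comparison known, nothing is read from these counts. The median log2 difference of the 8 was 0.87, against -0.02 over all tested genes. After rescaling to TPM the calls over all genes were fewer and tilted, with 2199 higher and 1213 lower against 3807 and 3927, and the median over all tested genes moved from -0.02 to 0.09. S100A4 then stood at 2.83 (SE 0.153) and S100A6 at 1.94 (SE 0.200), a shift upward of about that size.

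Most of the tested genes around the members were also higher. Of 69 other protein-coding genes within 250 kb of the members or between them, 67 had a row and 11 could be tested. Of these, 9 rose, 2 did not pass, and the median log2 difference was 0.59, where 27.3% of all tested genes passed as higher. The 9 were 4 of 4 tested genes before S100A10 and 5 of 6 after S100A1. Between S100A11 and S100A6 only 1 gene, HRNR, could be tested. SNAPIN, a protein of the vesicle-docking and lysosome-positioning machinery, rose from 30.5 ± 2.21 to 55.4 ± 0.646 FPKM (log2 0.85, SE 0.0575, limma adjusted p = 9.70e-05). ILF2, a subunit of a double-stranded RNA-binding complex, rose from 98.9 ± 10.2 to 160.5 ± 3.79 FPKM (log2 0.70, SE 0.0781, limma adjusted p = 0.000607). INTS3 of the Integrator complex rose 1.53-fold, and THEM4, a thioesterase on the S100A10 side, 1.68-fold. The 2 that did not pass were GATAD2B and the epidermal S100-fused gene HRNR, named after their values were seen, at log2 differences of 0.16 (SE 0.253) and -0.52 (SE 0.267).

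**Figure D2:**
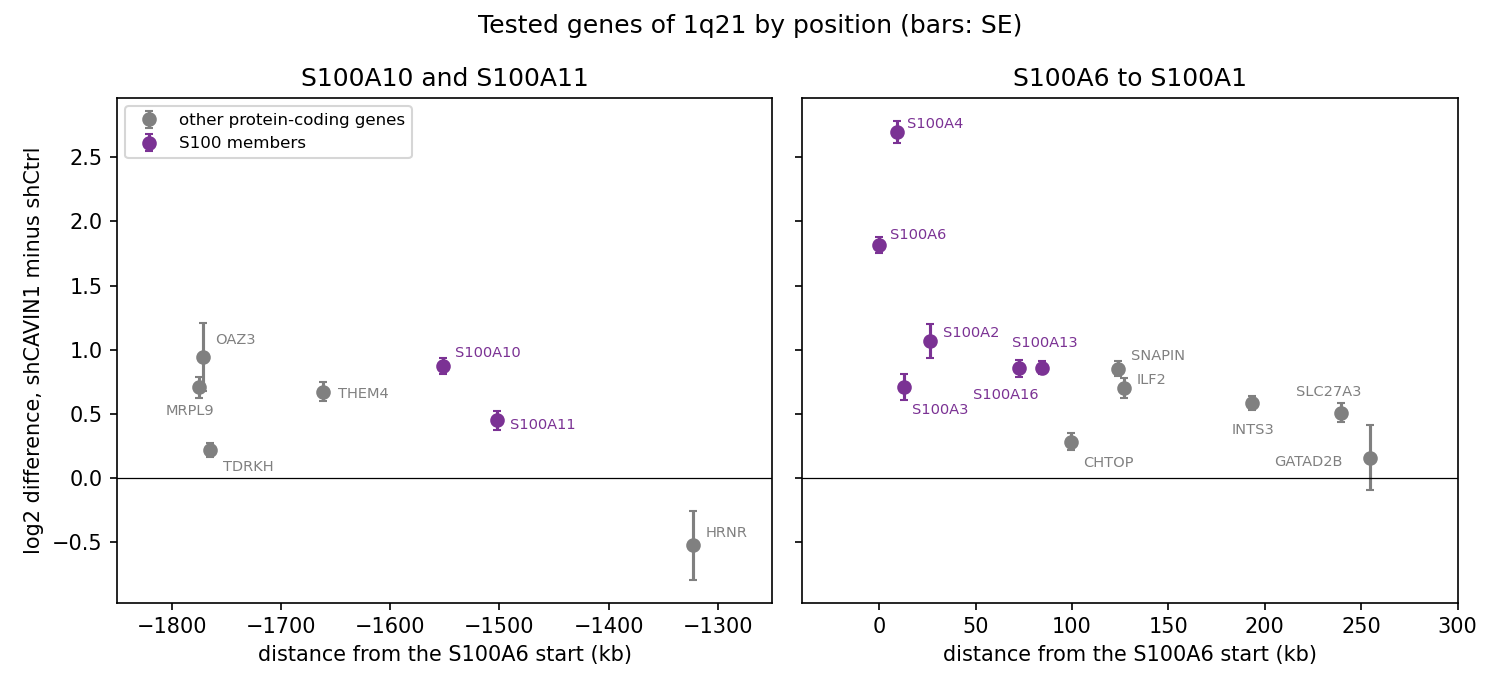
Log2 difference (shCAVIN1 minus shCtrl, bars are SE) of the 8 tested S100 members (purple) and 11 other tested protein-coding genes (grey) by distance in kb of each gene's lower coordinate from that of S100A6, in 2 windows. S100A4 and S100A6 stand above each other gene drawn, while S100A10, S100A13, S100A16, S100A3 and S100A11 lie between 0.45 and 0.88, within the range of their neighbours.

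The shift reached far beyond the cluster. Between 150 and 160 Mb of chromosome 1, which holds all the members, 93 of 134 tested protein-coding genes passed as higher and 10 as lower, at a median of 0.47. Between 170 and 180 Mb, 1 of 24 passed as higher and 15 as lower, at a median of -0.29. Other parts of chromosome 1 were skewed as well. Between 0 and 10 Mb 58 of 81 passed as higher and 4 as lower, and between 20 and 30 Mb 63 of 94 and 7. Over the whole chromosome 54.8% of 1166 tested protein-coding genes passed as higher and 12.1% as lower. Some other chromosomes were skewed too, with 47.3% higher and 13.7% lower on chromosome 14. On chromosome 20 the shares were 9.80% higher and 65.4% lower. In an alternative added after the data were seen, the median of the protein-coding genes within 5 Mb of each gene, members left out, was subtracted in each library. That median was 0.42 on the log2 scale for each member, from 136 to 142 genes. S100A4 then stood at 2.27 (SE 0.0838), S100A6 at 1.39 (SE 0.0524) and S100A2 at 0.64 (SE 0.115). S100A10, S100A13 and S100A16 stood at 0.45, 0.44 and 0.43. S100A3 (0.28, SE 0.103) and S100A11 (0.03, SE 0.0613) no longer passed, which left 6 of 8 past the threshold. Over all genes 3339 of 13941 then passed as higher and 3318 as lower, and nothing is read from the count of members. No DNA of these cells was analysed here, so the knockdown and a difference between the 2 sets of cells in chromosome 1 copy number or clonal origin cannot be told apart in these values. The part of the regional shift in the members' differences was not tested.

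**Figure D3:**
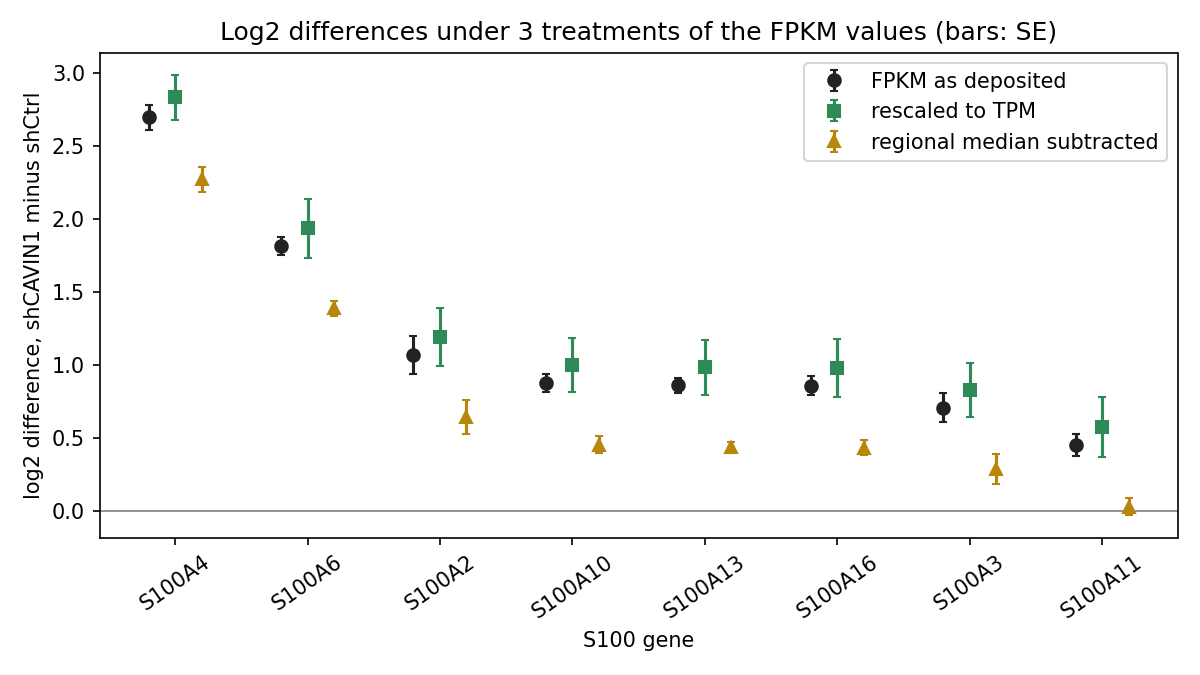
Log2 difference (shCAVIN1 minus shCtrl, bars are SE) of the 8 tested members from the FPKM values as deposited (circles), after rescaling to TPM (squares) and with the regional median subtracted (triangles). Under all 3 treatments S100A4 and S100A6 come first and S100A11 last, at 0.45, 0.57 and 0.03.

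The S100 genes outside the member list were nearly silent. Of 11 such genes, 6 were listed at 0 in all 6 libraries, among them S100A8, S100A9 and S100A12, the calgranulins of myeloid cells, and none exceeded 0.211 FPKM. The highest was S100A5, which lies between S100A6 and S100A4. It stood at 0.0356, 0.117 and 0.0569 FPKM in shCtrl and at 0.176, 0.147 and 0.211 FPKM in shCAVIN1, without overlap, below the filter. S100G and S100B, on other chromosomes, did not exceed 0.136 and 0.0846 FPKM. Of 7 S100-fused epidermal genes, only HRNR reached the filter, and FLG (filaggrin) ranged from 0.237 to 0.801 FPKM.

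Binding partners and receptors of S100 proteins did not move to one side. Of 34 listed genes 26 were tested, 8 rose, 9 fell and 9 did not pass, with a median log2 difference of -0.01. Over all tested genes 27.3% passed as higher and 28.2% as lower, near these counts, so nothing particular to the list is read from them. After rescaling to TPM 3 rose and 1 fell, where 2199 and 1213 of 13941 tested genes did. Of the genes of plasminogen activation, which S100A10 promotes at the cell surface together with annexin A2, PLAU (urokinase) fell from 12.4 ± 1.02 to 6.31 ± 0.235 FPKM (log2 -0.91, SE 0.0679, limma adjusted p = 0.000133), and PLAT (tissue plasminogen activator) rose from 32.7 ± 1.59 to 43.9 ± 1.22 FPKM (log2 0.42, SE 0.0492, limma adjusted p = 0.00074). PLAUR, also of plasminogen activation and named after its values were seen, fell from 21.3 ± 2.39 to 16.4 ± 0.337 FPKM (log2 -0.36, SE 0.0798, limma adjusted p = 0.00948). After rescaling to TPM PLAU was the only gene of the list that passed as lower. MYH9, the non-muscle myosin heavy chain that S100A4 binds, fell from 248 ± 19.4 to 156 ± 4.80 FPKM (log2 -0.66, SE 0.0672, limma adjusted p = 0.000414). The calls of MYH9 and PLAT were lost after rescaling to TPM, at log2 differences of -0.54 (SE 0.184, limma adjusted p = 0.0587) and 0.54 (SE 0.180, limma adjusted p = 0.0528). SYT1, a synaptotagmin found in the FGF1 release complex with S100A13, rose from 0.104 ± 0.0412 to 0.966 ± 0.0477 FPKM (log2 1.28, SE 0.102, limma adjusted p = 0.000167), and it reached the filter only through its shCAVIN1 libraries. Its log2 difference was 2.41 with a pseudocount of 0.1, the highest of this list at that setting, and 0.83 with a pseudocount of 1.

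ANXA2, ANXA1 and CACYBP, the best known partners of S100A10, S100A11 and S100A6, were chosen after their values were seen and differed among themselves. ANXA2 stood at 2542, 3009 and 2718 FPKM in shCtrl and at 2399, 2382 and 2362 FPKM in shCAVIN1 so that the groups did not overlap, and it did not pass the test (log2 -0.21, SE 0.0973, limma adjusted p = 0.115). The ratio of S100A10 to ANXA2 within a library went from 0.0350 ± 0.00103 to 0.0743 ± 0.000925, without overlap. ANXA1 rose from 191 ± 19.5 to 295 ± 2.03 FPKM (log2 0.63, SE 0.0776, limma adjusted p = 0.000898), and the ratio of S100A11 to ANXA1 went from 0.801 ± 0.00354 to 0.708 ± 0.0122. CACYBP did not pass, at 35.7 ± 4.20 and 40.6 ± 1.72 FPKM, and the ratio of S100A6 to CACYBP went from 12.1 ± 0.884 to 37.3 ± 1.70. These ratios compare levels per length and carry no test.

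Of the receptors, ALCAM, an immunoglobulin-family adhesion molecule, rose from 65.8 ± 3.77 to 178 ± 4.37 FPKM (log2 1.43, SE 0.0540, limma adjusted p = 1.53e-05). AGER, which encodes RAGE, was low and fell from 1.143 ± 0.135 to 0.837 ± 0.0722 FPKM (log2 -0.30, SE 0.0966, limma adjusted p = 0.0402). BSG (basigin) rose from 227 ± 11.2 to 256 ± 10.3 FPKM (log2 0.17, SE 0.0587, limma adjusted p = 0.0473). The calls of AGER and BSG were lost under 9 of 15 and 11 of 16 alternatives, and with the regional median subtracted BSG turned to -0.07. TLR4 and CD36 were below the filter.

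**Figure D4:**
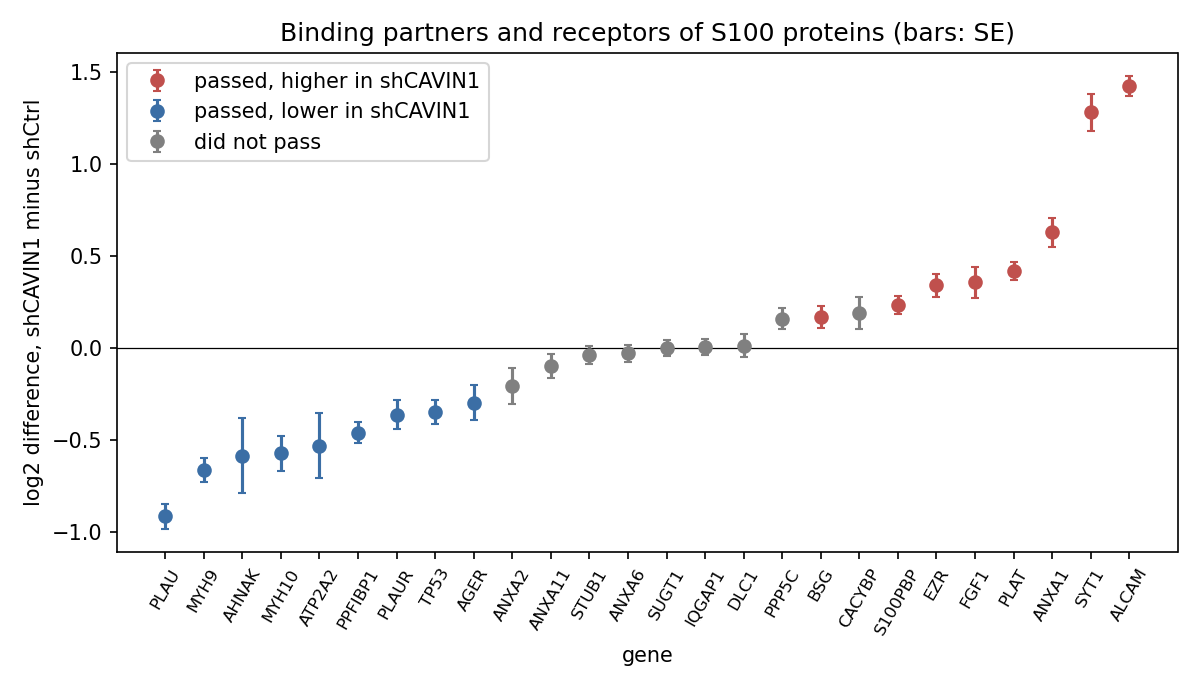
Log2 difference (shCAVIN1 minus shCtrl, bars are SE) of 26 tested binding partners and receptors of S100 proteins, ordered from lowest to highest and coloured by the limma call. PLAU at -0.91 and ALCAM at 1.43 mark the ends, with 9 genes lower, 9 not past the threshold and 8 higher.

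Other EF-hand genes went both ways as well. Of 41 listed, 34 were tested, 12 rose, 10 fell and 12 did not pass, with a median log2 difference of 0.07. These counts too were near the 27.3% higher and 28.2% lower over all tested genes. After rescaling to TPM 7 rose and 2 fell, where 2199 and 1213 of 13941 tested genes did. EFHD2 (swiprosin), an actin-binding protein, rose from 19.7 ± 0.325 to 50.6 ± 1.36 FPKM (log2 1.34, SE 0.0385, limma adjusted p = 6.95e-06). NCS1, a neuronal calcium sensor, fell from 31.2 ± 1.38 to 9.22 ± 0.496 FPKM (log2 -1.71, SE 0.0557, limma adjusted p = 1.06e-05). HPCAL1, of the same sensor family, rose 2.03-fold and PEF1, of the penta-EF-hand family, 1.56-fold. The highest of the 34 was TNNC1, a troponin C named after its values were seen, at 0.266 ± 0.0638 and 2.69 ± 0.690 FPKM, which reached the filter only through its shCAVIN1 libraries. Its log2 difference was 2.04 against 2.70 for S100A4, but 2.92 against 2.85 with a pseudocount of 0.1, so their order depends on the pseudocount.

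The genes closest to S100A4 in pattern were DCN, MMP3, ROBO1, SSTR1 and OLR1, in that order. Likeness was the root mean square distance between log2(FPKM + 0.5) values, each set relative to the shCtrl mean, over the 6 libraries. It was 0.10 for DCN and 0.16 for OLR1. MMP3, at 0.372 ± 0.0155 and 4.70 ± 0.0821 FPKM, reached the filter only through its shCAVIN1 libraries. Distances were taken with the pseudocount of 0.5 only, and for genes this low in shCtrl the order can depend on it. DCN, a collagen-binding proteoglycan, went from 1.76 ± 0.187 to 15.3 ± 0.710 FPKM, close to the levels of S100A4. For S100A11, the member with the smallest difference, the closest genes were UGCG, NR2C2AP, DESI2, CFL2 and POLR2L, at distances of 0.013 to 0.024. UGCG, which makes glucosylceramide, went from 154 ± 13.04 to 211 ± 1.73 FPKM. The distance is small wherever 2 genes share a difference between the groups, so it carries no more than that difference and the order of the libraries.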

How the data were processed

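The authors deposited 1 table of FPKM values with a column per library (fragments per kilobase of transcript, scaled to the mapped fragments). Per the submitters' processing notes, reads were handled with TopHat and TopHat2 (given as 2.2.5), CASAVA and bcl2fastq 2.17.1.14 on GRCh38. Quantifier, annotation and strand setting: not given in the sources used here. Depth is unknown, so no counting interval is given. FPKM falls for the other genes when a few RNAs take much of a library. Genes with a mean of at least 0.5 FPKM (13941) were tested with limma 3.58.1 (R 4.3.3) after taking log2(FPKM + 0.5) (group term, variance trend, Benjamini-Hochberg, threshold 0.05). The fit was also run on simulated data with independent noise and few genes changed. That setting differs from the 55.5% of genes called here, so nothing about these calls is drawn from it. Members, lists and alternatives were chosen with earlier results of these data known. Named genes are all members, CAVIN1, up to 4 genes per list by lowest adjusted p (up to 2 by level where none passed) and the 5 genes most like the members with the largest rise and the largest fall; since no tested member fell, the smallest rise was used. Positions come from GENCODE 29. The replicate numbers were not taken to pair the libraries.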

Additional observations from a re-analysis of the deposited data

How the results depend on the processing

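Across 16 alternatives (pseudocount, filter on low values, scaling, variance model, replicate block, and each library left out) S100A4 kept a log2 difference of 2.54 to 2.85 and S100A6 of 1.78 to 1.94, both past the threshold each time. S100A2, S100A3, S100A10, S100A13 and S100A16 also passed in all 16, and S100A11 in 15, at 0.40 to 0.57. Over all genes 3412 to 8511 passed at these settings, of 11315 to 22580 tested. The members were chosen on these same libraries, so nothing is read from how often they passed. Rescaling to TPM left 3412 calls against 7734 over all genes, 4 against 17 among partners and receptors and 9 against 22 among other EF-hand genes; the cause was not tested. Other S100 and S100-fused genes gave 0 calls by limma from 1 tested gene (HRNR), against 2 with no filter on low values (S100A5 higher and TCHH lower, named after their values were seen), 0 to 1 with a library left out (HRNR without shCtrl replicate 2) and 1 with the regional median subtracted. The regional median also turned BSG to -0.067. Same-numbered libraries had deviations correlated at 0.09, 0.07 and -0.03, so the numbers were not taken to pair the libraries; with the replicate block 7167 genes and 8 members passed. Depth behind the FPKM values is unknown, which limits what can be said of genes under the filter.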
